A study of Mus musculus with 12 samples.

Results

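The 9 genes described here are H2-Aa, H2-Ab1, H2-Eb1, Cd74, H2-DMa, H2-DMb1, H2-DMb2, Ciita and Ifi30, the mouse genes of the MHC class II chains, the invariant chain, the peptide-loading molecule DM, the class II transactivator and a lysosomal thiol reductase. They were taken by gene symbol from a table of 55586 genes, and all 9 passed the filter on low counts that kept 13474 genes. RNA sequencing had been done on cultured mouse peritoneal macrophages, the phagocytes of the abdominal cavity, in 4 groups of 3 libraries. Control cells were untreated, and the other groups received interferon gamma (IFN-γ), Remodelin hydrobromide, or Remodelin and then IFN-γ (the combined group). Remodelin is a small molecule described as an inhibitor of the acetyltransferase NAT10. The labels give no dose, duration, strain, age, animal or batch. They also do not say whether replicate libraries stem from different cultures or mice, and p-values accordingly cover the spread among the libraries alone, part of which may be technical.

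MHC class II molecules display peptides from endosomes and lysosomes to CD4+ T cells. An α and a β chain assemble with the invariant chain Cd74, which fills the peptide groove, and a remnant of it is later exchanged for antigen with the help of DM. Ciita encodes the coactivator that switches class II genes on. It does not bind DNA itself and is held at class II promoters by RFX, CREB and NF-Y proteins on neighbouring elements called the X box and the Y box. In macrophages, IFN-γ is the classical inducer of Ciita, and Irf1 acts in this induction.

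Promoters are shown because the X and Y boxes link several of these genes to Ciita. Sequences came from RefSeq on GRCm38.p6, as 250 bases before to 50 bases after an annotated start. Entries were found for 6 of the 9 genes, and H2-Ab1, Cd74 and Ciita had none. The letters AACNNNTG or AACNNTG, the core of the X box, followed by ATTGG, the Y box, with 10 to 35 bases between them, were searched on both strands. These letters were chosen after the promoters had been read. The pair stood in the promoters of H2-Aa, H2-Eb1, H2-DMb1 and H2-DMb2, each time on the coding strand with 22 to 24 bases between the elements. It was in 679 of 32851 promoters (2.07%), while ATTGG alone was in 37.4%. Capitals mark the 2 elements in the stretches below, which read 5′ to 3′ along the gene.
H2-Aa, chr17:34287852-34287922, minus strand: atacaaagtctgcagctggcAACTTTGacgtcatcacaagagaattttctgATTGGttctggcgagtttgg
H2-Eb1, chr17:34305758-34305827, plus strand: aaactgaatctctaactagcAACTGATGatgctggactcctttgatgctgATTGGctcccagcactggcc
H2-DMb1, chr17:34153079-34153149, plus strand: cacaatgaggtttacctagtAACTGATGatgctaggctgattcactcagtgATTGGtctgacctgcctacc
H2-DMb2, chr17:34145108-34145178, plus strand: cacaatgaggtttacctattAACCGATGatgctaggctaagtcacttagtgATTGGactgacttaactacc
The pair was not found in the single entry of Ifi30 or in the 2 entries of H2-DMa, which begin at chr17:34122582 and chr17:34125268. Whether these entries hold the start used in these cells was not tested. Absence of the pair from the entries thus does not show that H2-DMa or Ifi30 lacks it. Outside the 9 genes it was also present in H2-Ob and H2-Eb2 and not found in H2-Oa.

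Libraries held 15917454 to 19418665 counts, with 17353 to 18175 genes detected in each. Levels are given as CPM, the count scaled to a TMM-adjusted library total, and 3 counts were worth 0.154 to 0.188 CPM of the plain total, a floor for counting error only. The macrophage label was checked against markers: Adgre1, which encodes F4/80, lay between 148 and 199 CPM over all libraries, Csf1r between 103 and 215 CPM, and the lysozyme gene Lyz2 between 12660 and 23150 CPM. Gata6, the factor of large peritoneal macrophages, was present at group means of 13.1 to 16.2 CPM, while Timd4, another marker of them, had at most 2 reads in any library. Control 1 had the highest TMM factor (1.10) and Remodelin 1 the lowest (0.898), so the counts of Remodelin against control and of the average Remodelin effect are given with and without this pair.

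The class II genes spanned a wide range of levels. Levels of different genes are compared here per length, as the deposited FPKM averaged over 12 libraries, with a gene length that counts all annotated exons. That length was 3798 bases for H2-Aa, 2568 for H2-Ab1, 1944 for H2-Eb1 and 1681 for H2-DMb1. Their longest protein-coding transcripts had 1128, 1212, 1669 and 1404 bases, so the order of these genes depends on the length used. Ifi30 was highest at 293 FPKM, followed by Cd74 at 45.7 and H2-DMb1 at 33.0 FPKM. H2-Ab1 (19.7 FPKM) and H2-Eb1 (18.8 FPKM) came next. Their FPKM ratio lay on both sides of 1 over the libraries, from 0.874 to 1.15. In FPKM these neighbours thus did not differ beyond their spread. H2-Aa was at 12.3 FPKM, on this scale below H2-Ab1 in every library, with a ratio of H2-Ab1 to H2-Aa of 1.21 to 1.94. H2-DMa was at 7.42 FPKM. H2-DMb2 (0.566 FPKM) and Ciita (0.112 FPKM) lay far below, with 3 to 30 and 3 to 48 reads per library.

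**Figure D1:**
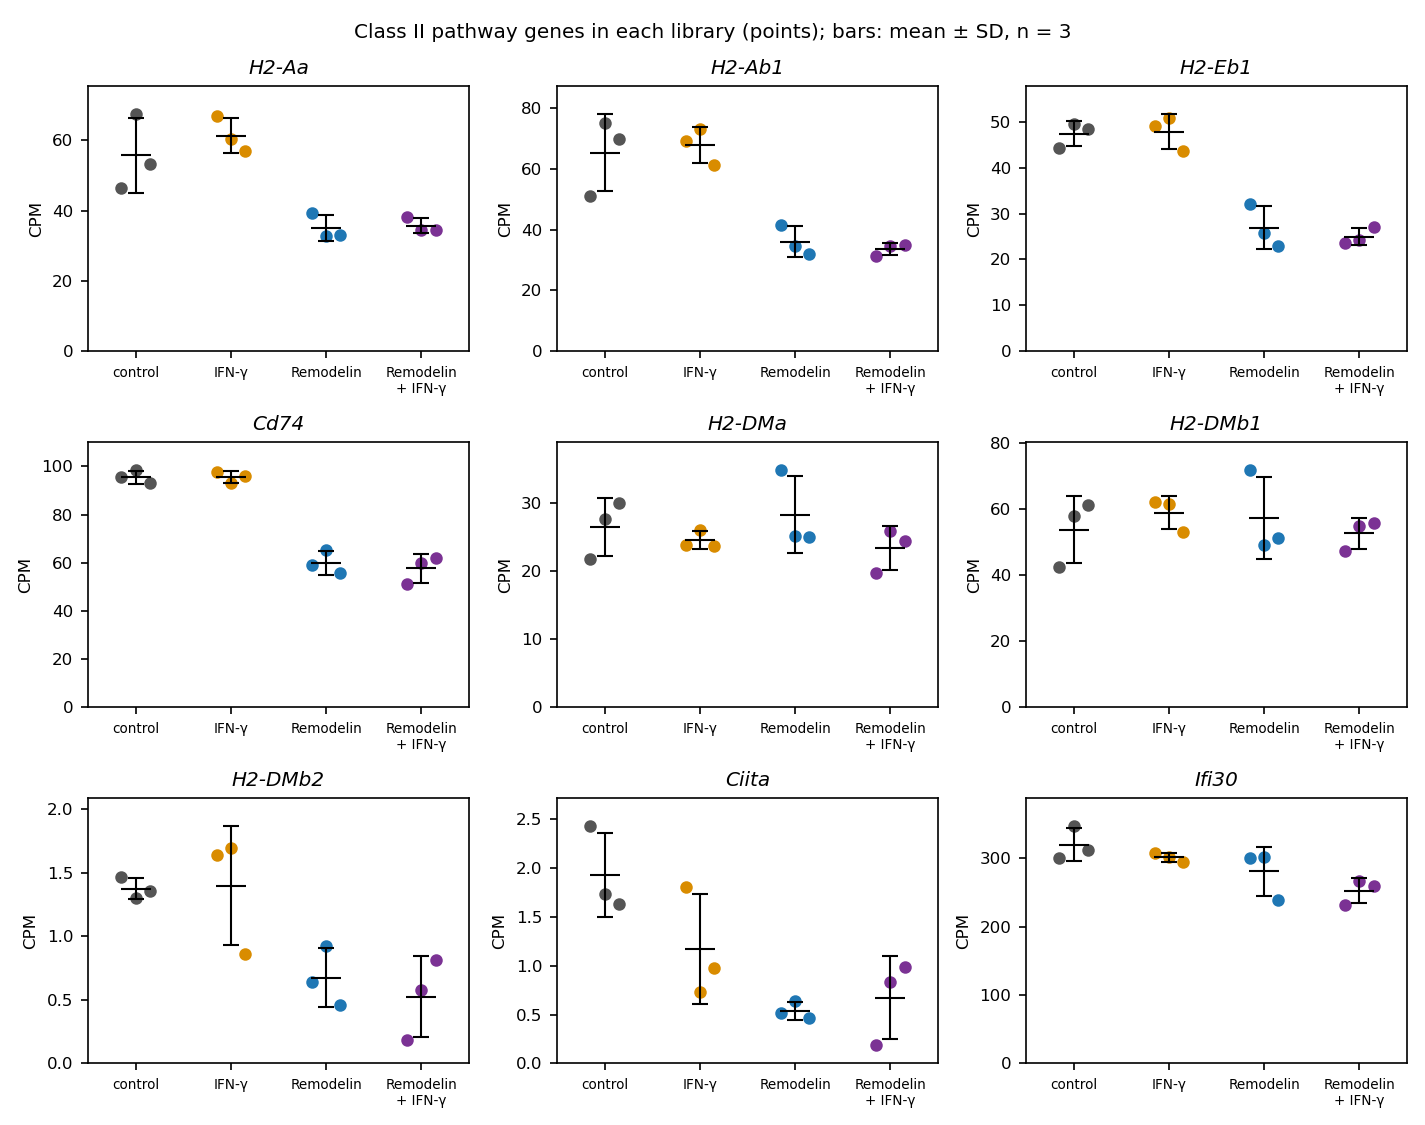
CPM of the 9 genes in each library (points) with mean ± SD of the 3 libraries of each group (bars). For H2-Aa, H2-Ab1, H2-Eb1 and Cd74 the 6 libraries with Remodelin lie below the 6 without it, and for the other 5 genes they overlap.

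The antigen-binding chains and the invariant chain were lower with Remodelin, whether or not IFN-γ was given. H2-Aa, the α chain of I-A, was at 46.6, 67.4 and 53.2 CPM in control, 66.9, 60.4 and 56.9 CPM with IFN-γ, 39.2, 32.7 and 33.0 CPM with Remodelin and 38.1, 34.6 and 34.6 CPM with both. H2-Ab1, the β chain that pairs with it, was at 51.2, 75.0 and 69.8 CPM in control, 69.2, 73.0 and 61.3 CPM with IFN-γ, 41.6, 34.5 and 32.0 CPM with Remodelin and 31.3, 34.6 and 34.98 CPM with both. For both chains the 6 Remodelin libraries were the 6 lowest, and control 1 was the lowest of the other 6. H2-Eb1, the β chain of I-E, was at 44.4, 49.5 and 48.5 CPM in control, 49.0, 50.9 and 43.5 CPM with IFN-γ, 32.0, 25.8 and 22.9 CPM with Remodelin and 23.5, 24.4 and 27.1 CPM with both. Cd74, the invariant chain, was at 95.4, 98.3 and 92.9 CPM in control, 97.7, 93.1 and 95.8 CPM with IFN-γ, 59.0, 65.5 and 55.6 CPM with Remodelin and 51.0, 60.0 and 61.9 CPM with both. Again no Remodelin library reached any library without it, and the control and IFN-γ libraries of Cd74 stayed within 92.9 to 98.3 CPM.

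Averaged over both levels of IFN-γ, 6 of the 9 genes were lower with Remodelin and 0 were higher. Of all 13474 tested genes, 4.8% were lower and 2.24% higher in this comparison. The log2 fold change was -0.94 ± 0.12 (SE) for H2-Ab1 (adjusted p = 0.000227, edgeR quasi-likelihood test), or 0.523 times the level without Remodelin. It was -0.88 ± 0.11 for H2-Eb1 (adjusted p = 0.000227), -0.73 ± 0.11 for H2-Aa (adjusted p = 0.00136) and -0.70 ± 0.10 for Cd74 (adjusted p = 0.000439). These 4 genes kept their call in each of the 12 fits that left out 1 library. They were also the genes whose Remodelin and other libraries did not overlap, a pattern that 3.41% of all tested genes showed in that direction. The median log2 fold change of the 9 genes was -0.73, beside 0.03 over all tested genes. In bulk RNA, fewer cells that express these genes and less of their RNA per cell cannot be told apart.

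Ciita and H2-DMb2 were the other genes called, both from few reads. Ciita had 48, 32 and 30 reads in control, 32, 13 and 17 with IFN-γ, 8, 11 and 8 with Remodelin and 3, 16 and 17 with both. The Remodelin libraries were all below the control libraries, whereas the IFN-γ and combined libraries overlapped. Its average log2 fold change with Remodelin was -1.31 ± 0.34 (adjusted p = 0.029, edgeR), and the call was lost without control 2, IFN-γ 1, Remodelin 2, Remodelin 3 or combined library 1, with adjusted p up to 0.115. H2-DMb2, a DM β chain, had 29, 24 and 25 reads in control, 29, 30 and 15 with IFN-γ, 10, 16 and 8 with Remodelin and 3, 11 and 14 with both. Over all libraries, IFN-γ 3 lay below Remodelin 2, so the 6 Remodelin libraries and the other 6 overlapped. The average log2 fold change of H2-DMb2 was -1.20 ± 0.31 (adjusted p = 0.0309, edgeR), and it was lost without control 2, control 3, IFN-γ 1, IFN-γ 2, Remodelin 3 or combined library 1, with adjusted p up to 0.0938. H2-DMb2 is a near copy of H2-DMb1: their transcripts matched at 94.6% of 1219 aligned bases, and 25.2% of the 50-base stretches of H2-DMb2 also stood in H2-DMb1. The rule for counting reads that match both was not given in the sources used here, so the level of H2-DMb2 is uncertain.

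The remaining DM genes and Ifi30 were not called. H2-DMb1, the abundant DM β chain, was at 42.4, 57.7 and 61.2 CPM in control, 62.0, 61.6 and 53.0 CPM with IFN-γ, 71.6, 49.0 and 51.0 CPM with Remodelin and 47.3, 54.9 and 55.7 CPM with both. The groups overlapped throughout, with the lowest library in control and the highest in Remodelin. Its average log2 fold change with Remodelin was -0.04 (95% interval -0.28 to 0.21, adjusted p = 0.877, edgeR). Its promoter was among the 4 shown above with the X and Y elements. H2-DMa, the DM α chain, ranged from 21.8 to 30.0 CPM in control, 23.6 to 26.0 CPM with IFN-γ, 24.9 to 34.8 CPM with Remodelin and 19.7 to 25.9 CPM with both. These groups overlapped too, and the average log2 fold change of H2-DMa was 0.01 (95% interval -0.24 to 0.26, adjusted p = 0.956). Ifi30, which reduces disulfide bonds of antigens in the lysosome, had an average log2 fold change of -0.22 (95% interval -0.41 to -0.03, adjusted p = 0.168). Its highest library was control 2 at 346 CPM and its lowest combined library 1 at 232 CPM. Without control 1 and Remodelin 1, a pair chosen after seeing the data, Ifi30 was lower as well, at a log2 fold change of -0.27 (adjusted p = 0.0485), which made 7 of 9 genes lower. In that fit 13.3% of all tested genes were lower, beside 4.8% with all libraries.

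**Figure D2:**
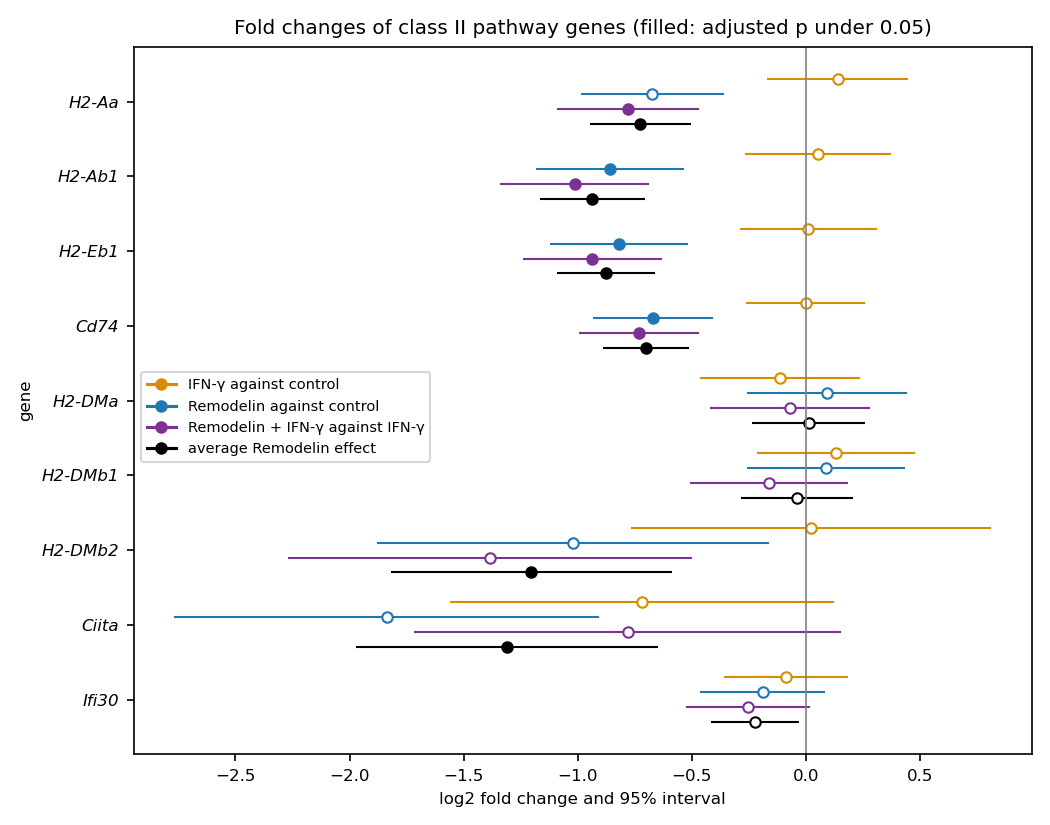
Log2 fold changes (points) with their 95% intervals (lines) for the 9 genes in 3 comparisons between groups and the average Remodelin effect, filled where the adjusted p was under 0.05. The Remodelin comparisons of H2-Aa, H2-Ab1, H2-Eb1 and Cd74 lie left of 0, while the IFN-γ comparisons cross 0 for all 9 genes.

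Within each library, the chains were also set against the DM genes. The summed FPKM of H2-Aa, H2-Ab1 and H2-Eb1 over that of H2-DMa and H2-DMb1 was 1.74, 1.71 and 1.47 in control and 1.59, 1.60 and 1.59 with IFN-γ. It was 0.816, 0.97 and 0.876 with Remodelin and 1.01, 0.873 and 0.912 with both. The 6 Remodelin libraries were thus all below the 6 others. The FPKM of Cd74 over the summed chains ranged from 0.787 to 1.03 without Remodelin and from 0.818 to 1.10 with it, and these ranges overlapped. The ratio of H2-DMb1 to H2-DMa overlapped between control (3.99 to 4.28) and Remodelin (4.0 to 4.23) and between IFN-γ (4.60 to 5.34) and the combined group (4.35 to 4.92). This ratio was higher in all 6 libraries with IFN-γ (4.35 to 5.34) than in the 6 without it (3.99 to 4.28). That difference was not tested.

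**Figure D3:**
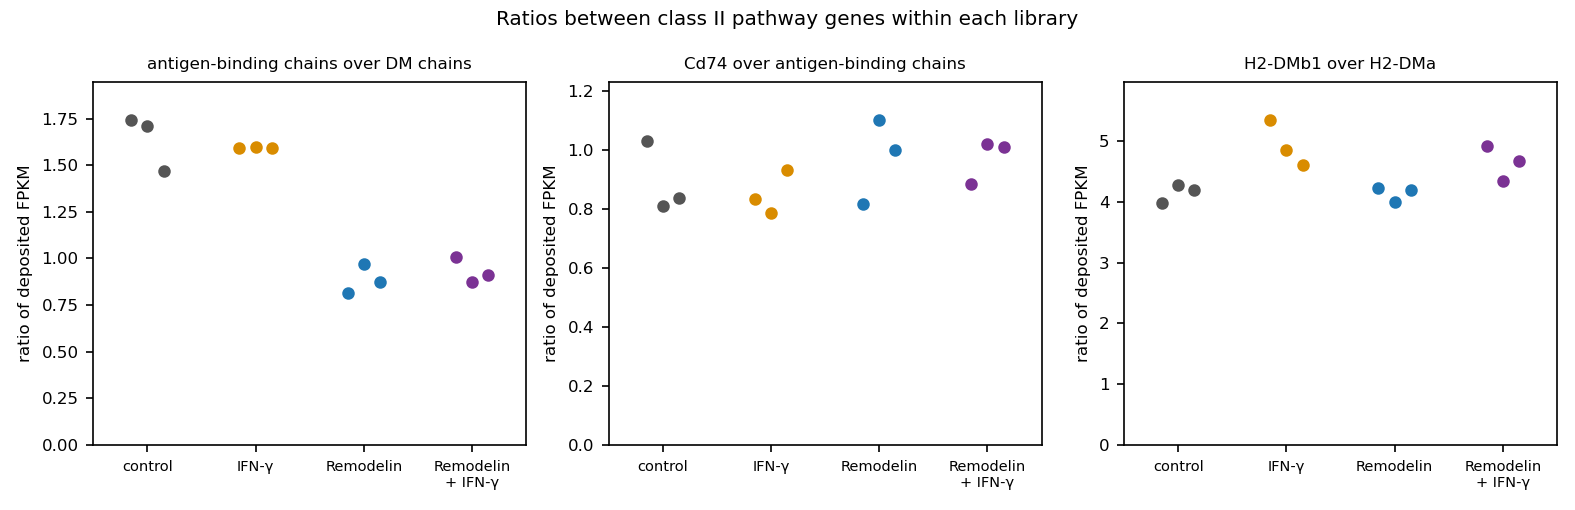
Ratios of deposited FPKM within each library (points) by group: the 3 antigen-binding chains over the DM chains H2-DMa and H2-DMb1, Cd74 over the antigen-binding chains, and H2-DMb1 over H2-DMa. The first ratio is 1.47 or more in every library without Remodelin and 1.01 or less in every library with it.

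Remodelin against control, without IFN-γ, asked what the compound did in otherwise untreated cells. H2-Ab1, H2-Eb1 and Cd74 were lower, 3 of the 9 genes, where 0.653% of all tested genes were lower. H2-Ab1 went from 65.3 ± 12.5 CPM (SD, n = 3) to 36.0 ± 4.99 CPM, a log2 fold change of -0.86 ± 0.17 (adjusted p = 0.018, edgeR). H2-Eb1 went from 47.4 ± 2.71 to 26.9 ± 4.64 CPM, -0.82 ± 0.16 (adjusted p = 0.0161), and Cd74 from 95.6 ± 2.69 to 60.0 ± 5.03 CPM, -0.67 ± 0.13 (adjusted p = 0.0229). H2-Aa (-0.67 ± 0.16, adjusted p = 0.0567) and Ciita (-1.84 ± 0.48, adjusted p = 0.0863) did not pass. The 3 calls depended on single libraries. Without control 2, control 3, Remodelin 2 or Remodelin 3, edgeR called 0 of 9 genes, with 5, 5, 6 and 5 at an unadjusted p under 0.05. Calls over all tested genes were then 20, 53, 38 and 36, beside 114 with all libraries. With all libraries, 6 of the 9 genes and 1708 of all 13474 tested genes had an unadjusted p under 0.05 by edgeR. The share of all genes under that threshold in fits on fewer libraries is not reported here. Without 1 library, the log2 fold changes ranged from -1.01 to -0.75 for H2-Ab1, -0.96 to -0.71 for H2-Eb1 and -0.74 to -0.62 for Cd74. Without control 1 or Remodelin 1 the count was 4 of 9, where 0.607% and 0.638% of all tested genes were lower. Without both of these libraries it was also 4, with H2-Aa now lower (-0.88 ± 0.16, adjusted p = 0.00731, edgeR). In that fit 6.07% of all tested genes were lower, beside 0.653% with all libraries. In the full set DESeq2 called 5 and limma-voom 3, beside 269 and 99 of all tested genes. On these 2 groups alone edgeR called 0, beside 22 of all tested genes, with 6 at an unadjusted p under 0.05.

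In the authors' deposited table, the same comparison gave a log2 fold change of -0.68 for H2-Ab1 (adjusted p = 0.018), -0.66 for H2-Eb1 (adjusted p = 0.017) and -0.57 for Cd74 (adjusted p = 0.0163). In the authors' deposited table, H2-Aa was at -0.54 (adjusted p = 0.105) and Ciita at -0.80 (adjusted p = 0.0527).

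The combined group against IFN-γ alone asked the same of cells that also received the cytokine. H2-Aa, H2-Ab1, H2-Eb1 and Cd74 were lower, 4 of the 9 genes, where 0.223% of all tested genes were lower. H2-Ab1 went from 67.8 ± 5.94 to 33.6 ± 2.04 CPM, a log2 fold change of -1.01 ± 0.17 (adjusted p = 0.011, edgeR). H2-Eb1 was at -0.94 ± 0.16 (adjusted p = 0.0117), H2-Aa at -0.78 ± 0.16 (adjusted p = 0.043) and Cd74, from 95.6 ± 2.31 to 57.6 ± 5.84 CPM, at -0.73 ± 0.13 (adjusted p = 0.021). H2-DMb2 (-1.39 ± 0.45, adjusted p = 0.167) and Ciita (-0.78 ± 0.48, adjusted p = 0.417) did not pass. When IFN-γ 1, IFN-γ 2 or the first combined library was left out, edgeR called 0 of the 9 genes. In each case 5 had an unadjusted p under 0.05. Over all tested genes edgeR then called 11, 10 and 26, beside 49 with all libraries. Without IFN-γ 3 it called 2 of the 9, beside 19 of all tested genes. Without combined library 2 or 3 it called 1, beside 23 or 16 of all tested genes. H2-Aa and Cd74 lost their call in each of the 6 fits. With all libraries, 2180 of 13474 genes had an unadjusted p under 0.05 by edgeR. DESeq2 and limma-voom then called 4 of the 9 each, beside 264 and 39 of all tested genes. In the authors' deposited table, H2-Ab1 was at -0.91 in this comparison (adjusted p = 5.85e-08), H2-Eb1 at -0.84 (adjusted p = 2.81e-06), H2-Aa at -0.71 (adjusted p = 6.82e-05) and Cd74 at -0.66 (adjusted p = 0.000165).

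The interaction tests whether the Remodelin difference depended on IFN-γ. It called 0 of the 9 genes with edgeR, 0 at an unadjusted p under 0.05, and 0 with DESeq2 or limma-voom, where 0.00742% of all tested genes were called. Of all 13474 tested genes, 310 had an unadjusted interaction p under 0.05 by edgeR. The interaction was -0.15 on the log2 scale for H2-Ab1 (95% interval -0.61 to 0.30) and -0.06 for Cd74 (95% interval -0.43 to 0.31). For Ciita it was 1.05 (95% interval -0.28 to 2.39), an interval too wide to place the difference.

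IFN-γ gave no call among the class II genes, in the absence or presence of Remodelin. Against control, 0 of 9 genes were called by edgeR, 0 had an unadjusted p under 0.05, and DESeq2 and limma-voom called 0, where 0.0148% of all tested genes were called. Of all 13474 tested genes, 724 had an unadjusted p under 0.05 by edgeR. The log2 fold change was 0.00 for Cd74 (95% interval -0.26 to 0.26), 0.05 for H2-Ab1 (-0.27 to 0.38), 0.14 for H2-Aa (-0.17 to 0.45) and 0.01 for H2-Eb1 (-0.29 to 0.31). The upper bounds of these intervals were at most 0.45. Ciita itself was at 1.93 ± 0.434 CPM in control and 1.17 ± 0.565 CPM with IFN-γ, a log2 fold change of -0.72 ± 0.43 (adjusted p = 0.889). Between the combined group and Remodelin alone, 0 of 9 genes were called by edgeR, with 0 at an unadjusted p under 0.05 and 0 by DESeq2 and limma-voom, where 0% of all tested genes were called. The average IFN-γ effect also called 0 of 9 by edgeR, 0 at an unadjusted p under 0.05 and 0 by the other tools, where 0.00742% of all tested genes were called. By edgeR, 1043 of all 13474 tested genes had an unadjusted p under 0.05 between the combined group and Remodelin alone. In the average IFN-γ effect 1735 had one.

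Against control, other targets of IFN-γ were not called either. Of 16 response genes, 13 were tested. IFN-γ against control called 0 of them by edgeR, DESeq2 or limma-voom, with 0 at an unadjusted p under 0.05. Between the combined group and Remodelin alone, these tools also called 0 of 13. There 2 had an unadjusted p under 0.05, beside 1043 of all 13474 tested genes. Of the 13 log2 fold changes 11 were above 0, with a median of 0.27, beside -0.006 over all tested genes. In the average IFN-γ effect DESeq2 called 1 of 13 and the other tools 0, where DESeq2 called 25 of all tested genes. Irf1, the interferon-induced factor that acts on Ciita, was at 20.3 ± 1.96 CPM in control and 22.1 ± 4.09 CPM with IFN-γ. Cd274, which encodes PD-L1, and Irgm1, an interferon-induced GTPase, were the most abundant of the list. Neither was called in IFN-γ against control. Irgm1 was at 14.9 to 20.1 CPM in control and 21.2 to 24.9 CPM with IFN-γ, without overlap, but overlapped between Remodelin and the combined group. Gbp2, another interferon-induced GTPase, overlapped in neither. It was at 6.2 to 7.5 CPM in control and 8.0 to 8.8 CPM with IFN-γ. With Remodelin Gbp2 was at 6.1 to 6.6 CPM, and with both at 10.4 to 11.9 CPM. Against control, 7 of the 13 log2 fold changes were below 0 and 6 above. The chemokine gene Cxcl10 was at 2.48 ± 0.235 and 2.35 ± 0.565 CPM in these groups. Cxcl9, a chemokine gene that IFN-γ induces strongly in macrophages, had at most 2 reads in any library. Over the whole table, edgeR called 2 genes between IFN-γ and control, namely the mitochondrial transfer RNA gene mt-Tp (log2 fold change 3.19 ± 0.33, adjusted p = 0.000304) and Gm17066 (2.11 ± 0.33, adjusted p = 0.0488).

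Among genes that act on Ciita or with its product, few were called with Remodelin. Of 12 regulators of Ciita, 2 were lower and 0 higher in the average Remodelin effect, with a median log2 fold change of -0.25. DESeq2 called 5. Of all 13474 tested genes, edgeR called 4.8% lower and 2.24% higher, and DESeq2 called 1378. The regulators called by edgeR were Irf1 (-0.47 ± 0.12, adjusted p = 0.0326) and Ifngr2, a chain of the IFN-γ receptor (-0.41 ± 0.11, adjusted p = 0.0312). Spi1, the myeloid factor PU.1 and the most abundant of the list, was at -0.35 ± 0.11 (adjusted p = 0.0599). Of 12 partners of CIITA at class II promoters, Atf1, a CREB family factor, was higher (0.57 ± 0.15, adjusted p = 0.0297) and 0 were lower. Nfya, the NF-Y subunit that was the most abundant of this list, was at 0.01 ± 0.10 (adjusted p = 0.953). Rfx5, the DNA-binding subunit of RFX, was at 0.11 ± 0.16 (adjusted p = 0.678). Of the 13 IFN-γ response genes, 2 were lower, Irf1 and Cxcl10 (-1.47 ± 0.25, adjusted p = 0.00297), while Cd274 was at 0.27 ± 0.11 (adjusted p = 0.148) and Irgm1 at 0.17 ± 0.16 (adjusted p = 0.507).

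Genes that process antigen for class II gave no call by edgeR: 0 of 13 in the average Remodelin effect, with a median log2 fold change of -0.06. At an unadjusted p under 0.05 there were 6, beside 3514 of all 13474 tested genes. DESeq2 called 2, beside 1378 of all tested genes, and limma-voom 0. The lysosomal proteases Ctsd and Ctsb, the most abundant genes of this list, were at -0.35 ± 0.13 (adjusted p = 0.107, edgeR) and -0.34 ± 0.12 (adjusted p = 0.0899). Ctss, the protease that trims the invariant chain, was at 0.42 ± 0.17 (adjusted p = 0.136). Genes that lie among the class II genes on chromosome 17 gave 0 calls of 5 by edgeR, DESeq2 or limma-voom, 0 at an unadjusted p under 0.05, and a median of -0.04. They included the immunoproteasome gene Psmb8 (-0.25 ± 0.14, adjusted p = 0.26) and the bromodomain gene Brd2 (-0.01 ± 0.11, adjusted p = 0.982). Of 7 class I genes, H2-D1 (-0.41 ± 0.12, adjusted p = 0.0425), a heavy chain, and Tapbp (-0.46 ± 0.13, adjusted p = 0.0377), which encodes tapasin, were lower. The light chain B2m was at 0.24 ± 0.12 (adjusted p = 0.214). Of all tested genes, edgeR called 4.8% lower in the average Remodelin effect. H2-Ea, whose product pairs with that of H2-Eb1, had 0 reads in all 12 libraries, which allows up to 0.188 CPM in the shallowest. H2-Oa (-0.65 ± 0.47, adjusted p = 0.384) and H2-Ob (0.10 ± 0.29, adjusted p = 0.85), the chains of the DM inhibitor DO, were not called, nor was H2-Eb2, by edgeR, DESeq2 or limma-voom, with 0 of the 3 at an unadjusted p under 0.05.

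Markers of other cells that can carry class II or that share the cavity were read beside these results. In the average Remodelin effect, edgeR called 4.8% of all 13474 tested genes lower and 2.24% higher. DESeq2 called 1378 and limma-voom 920, and 3514 had an unadjusted p under 0.05 by edgeR. All marker counts below belong beside these shares. For macrophage markers, 0 of 9 were called by edgeR, 2 had an unadjusted p under 0.05, and DESeq2 called 2 and limma-voom 0. Their summed level, mostly Lyz2, was 16400 to 24300 CPM in control and 20500 to 23300 CPM with IFN-γ. It was 15500 to 25800 CPM with Remodelin and 17600 to 25000 CPM with both. Adgre1 was at 148 to 171 CPM without Remodelin and 172 to 199 CPM with it, and Csf1r at 160 to 215 and 103 to 204 CPM. Of the 9 average log2 fold changes, 5 were below 0 and 4 above. Of 12 B cell markers, 7 were tested and 1 was lower, Ighm, the immunoglobulin µ heavy chain (-0.92 ± 0.14, adjusted p = 0.00113, edgeR), with a median log2 fold change of -0.25. Their summed level was 75.0 to 80.4 CPM in control, 66.2 to 79.0 CPM with IFN-γ, 62.7 to 75.4 CPM with Remodelin and 51.0 to 66.0 CPM with both. Most of it came from Cd22, with group means of 46.1 to 58.1 CPM, while the B cell factors Pax5 and Ebf1 had at most 4 and 5 reads in any library. All 7 tested B cell markers had an average log2 fold change below 0, and 2 had an unadjusted p under 0.05 by edgeR. The part of B cells in the class II difference was not tested.

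Among dendritic cell markers 0 of 4 tested genes were called by edgeR, DESeq2 or limma-voom, with 1 at an unadjusted p under 0.05. Their sum, mostly Itgax, was 409 to 522 CPM in control and 339 to 390 CPM with IFN-γ. It was 359 to 533 CPM with Remodelin and 221 to 435 CPM with both. Flt3, Clec9a and Xcr1 had at most 8, 7 and 3 reads in any library. Beside the calls that follow, edgeR called 4.8% of all tested genes lower in the average Remodelin effect. Mesothelial markers had a median log2 fold change of -0.39 and gave 3 lower of 7, namely Upk3b (-1.80 ± 0.14, adjusted p = 2.16e-06, edgeR), Upk1b (-0.56 ± 0.13, adjusted p = 0.0146) and Krt19 (-0.71 ± 0.21, adjusted p = 0.0483). Their sum was 87.7 to 119 CPM in the libraries without Remodelin and 47.1 to 66.0 CPM in those with it. Neutrophil markers had a median of -0.72 over 4 tested genes and gave 2 lower, the proteases Mmp8 (-1.30 ± 0.18, adjusted p = 0.000589) and Mmp9 (-1.24 ± 0.17, adjusted p = 0.000439), with sums of 47.2 to 55.8 and 28.9 to 35.1 CPM, while Ly6g had at most 1 read. The mesothelial and neutrophil sums thus separated the libraries in the same way as the class II chains. Within the mesothelial sum, Upk3b had group means of 41.3 to 46.5 CPM without Remodelin and 11.4 to 13.9 CPM with it. S100a8, the most abundant neutrophil marker, was not called. Its libraries overlapped, at 14.6 to 26.8 CPM without Remodelin and 13.4 to 22.8 CPM with it. Of the tested fold changes, 2 of 7 mesothelial and 1 of 4 neutrophil ones were above 0. The part of these cells in the class II difference was not tested. The large peritoneal macrophage marker Serpinb2 was lower (-0.67 ± 0.17, adjusted p = 0.0285), 1 of 8 tested, and small peritoneal macrophage markers gave 0 calls of 8 by edgeR, DESeq2 or limma-voom, with 0 at an unadjusted p under 0.05. T cell markers and mast cell or eosinophil markers each had 1 tested gene, Lck (0.19 ± 0.23, adjusted p = 0.611) and Siglecf (-0.24 ± 0.21, adjusted p = 0.477), with 0 calls by the same tools and 0 at an unadjusted p under 0.05.

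**Figure D4:**
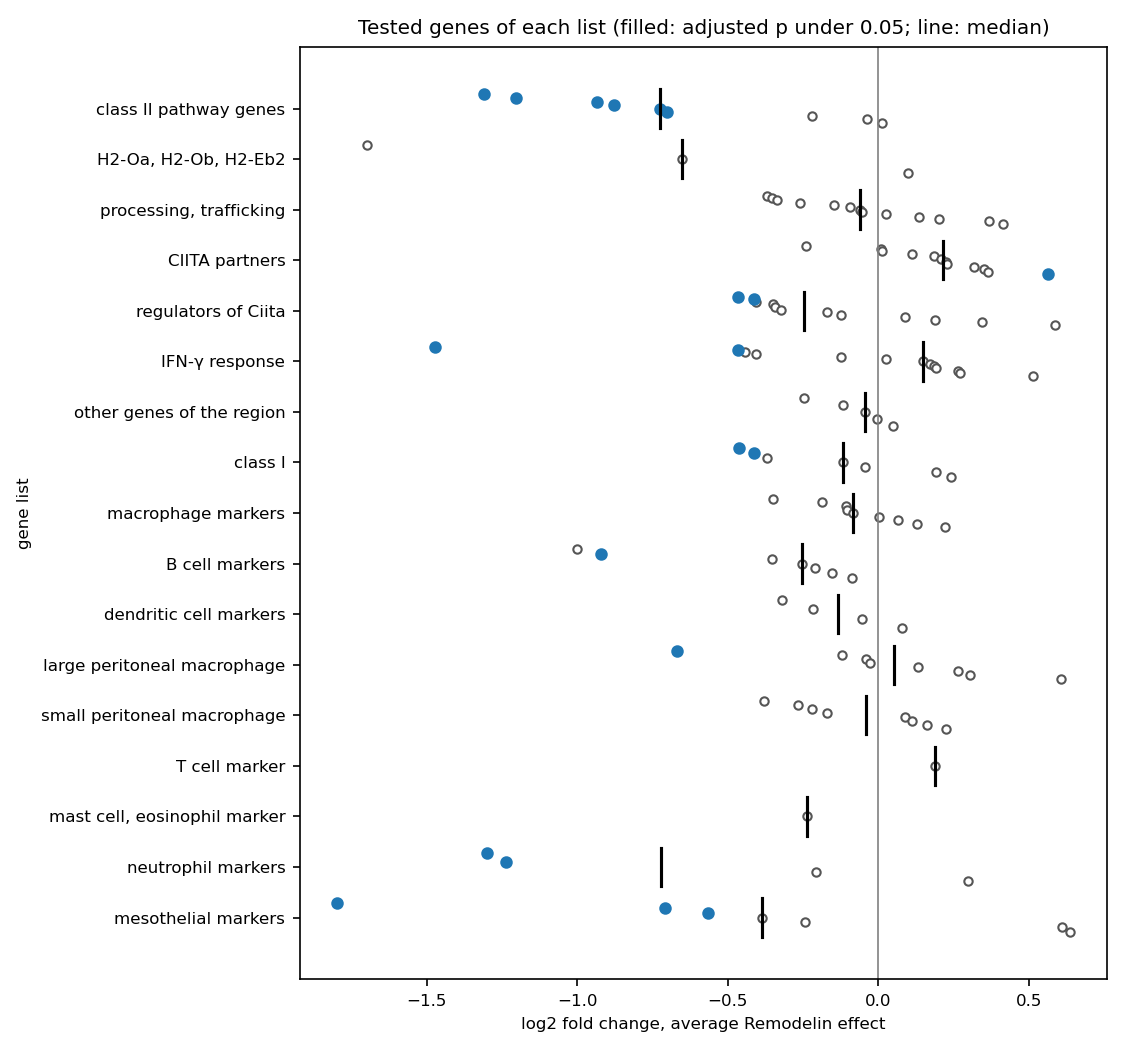
Average log2 fold change with Remodelin of each tested gene (points) by gene list, filled where the adjusted p was under 0.05, with the median of each list as a black line. The 9 class II pathway genes have a median of -0.73, the 4 neutrophil markers -0.72, the 3 other genes of the class II locus -0.65 and the 7 mesothelial markers -0.39, and the other lists lie between -0.25 and 0.22.

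The genes whose pattern over the 12 libraries was most like that of the 3 antigen-binding chains were ranked by Pearson r among 9150 genes with a mean of at least 5 CPM. They are a description, since they were selected for likeness and share libraries and depth with the chains. Mvd and Fdft1, enzymes of the mevalonate and cholesterol pathway, had r = 0.984 and 0.983. Lat, a signalling adaptor, and Tmem176b, a membrane protein, had r = 0.983 each. Tor3a and Pea15a followed at 0.98 each, Naa12 at 0.979 and the cell cycle inhibitor Cdkn1c at 0.973. Against the same mean profile, Cd74 had r = 0.94, Ifi30 0.778, H2-DMb2 0.775, Ciita 0.672, H2-DMb1 0.353 and H2-DMa 0.175.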

How the data were processed

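Gene expression was read from the authors' deposited table of raw read counts per gene for 12 libraries, per the file headers, with groups and replicate numbers from the labels. The submitters' processing notes name CASAVA 1.8, HISAT2 2.0.5 and featureCounts 1.5.0-p3, with no role or order. Genome build, annotation, strand setting and the treatment of shared reads were not given in the sources used here. The authors' deposited FPKM served for levels between genes. The authors' deposited log2 fold changes with their p-values are quoted as theirs.

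The main test was edgeR's quasi-likelihood test (edgeR 4.0.16, R 4.3.3) with TMM and the default filter, fitted on all 12 libraries with a mean per group. Benjamini-Hochberg adjustment ran over 13474 genes, with calls at an adjusted p under 0.05. Libraries varied with a common biological coefficient of variation of 18.6%. Errors are SE on fold changes and SD on levels (n = 3). The procedure was tested on simulated data with 200 changed genes. Alternatives were DESeq2 1.42.0, limma-voom (limma 3.58.1), DESeq2 size factors within edgeR, no filter, a filter of 50 reads in 3 libraries, a replicate block, only the groups being compared, removal of the trend with GC content, and each library left out in turn. They were run for the 9 genes, not for the other genes named. Leaving out control 1 and Remodelin 1 together was chosen after seeing the data.

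The members and lists were chosen with earlier results of these data known. A rule named all 9 members, of each list the genes called and those of highest level (2, or 1 for cell type markers), and the 8 genes most like the chains. H2-Ea, H2-Eb2, Rfx5, Ctss, Cxcl9, Adgre1, Csf1r, Gata6, Timd4, Pax5, Ebf1, Flt3, Clec9a, Xcr1 and Ly6g stand outside it and were chosen for their known roles after their values were seen. Gbp2 also stands outside the rule, and its levels were added after they were seen to separate by IFN-γ. Cd9 and Fn1, the highest of their marker lists, were not called and are counted without values. Some genes of the lists are not reported here.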

Additional observations from a re-analysis of the deposited data

How the results depend on the processing

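Without any 1 library, the average Remodelin effect called 4 to 6 of the 9 genes. Remodelin against control called 0 to 4, and Remodelin with IFN-γ against IFN-γ 0 to 2. Over all tested genes these fits called 298 to 1960, 20 to 121 and 10 to 26, beside 949, 114 and 49 with all libraries. Remodelin against control called 5 with DESeq2 and 1 with the replicate block. By edgeR on the compared groups alone it called 0, with 6 at an unadjusted p under 0.05. These settings called 269, 58 and 22 of all tested genes. In the main fit on all libraries, 1708 of 13474 genes had an unadjusted p under 0.05 in this comparison. Remodelin with IFN-γ against IFN-γ called 2 with the block, beside 24 of all tested genes. Without control 1 and Remodelin 1 together, calls over all tested genes were 1853 for Remodelin against control, beside 114 with all libraries, and 3668 for its average effect, beside 949. Few same-numbered libraries deviated together: 3 of 18 pairs had a correlation over 0.1 (range -0.497 to 0.227). Deviations from means of 3 libraries cannot show whether libraries of 1 number share a mouse or batch. The labels do not say either, so whether the block is a pairing is not known. With the block, Ciita and H2-DMb2 were at adjusted p = 0.0574 and 0.0526 (edgeR) in the average Remodelin effect. H2-Aa, H2-Ab1, H2-Eb1 and Cd74 kept their calls in that effect under every alternative run.

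Of 1021 fold changes recomputed, 78 changed sign. Each was uncalled before and after, with a 95% interval over 0 in both fits, and the cause was not tested. Without 1 library, or without control 1 and Remodelin 1 together, the ranges in IFN-γ against control were -0.094 to 0.166 for H2-Ab1, -0.035 to 0.076 for H2-Eb1, -0.018 to 0.022 for Cd74, -0.014 to 0.236 for H2-DMb1 and -0.137 to 0.278 for H2-DMb2. For Remodelin against control they were -0.204 to 0.193 for H2-DMa and -0.251 to 0.193 for H2-DMb1, and for its average effect -0.135 to 0.101 and -0.206 to 0.035. H2-DMa ranged from -0.149 to 0.061 in Remodelin with IFN-γ against IFN-γ. In Remodelin with IFN-γ against Remodelin the ranges were -0.035 to 0.124 for H2-Aa, -0.178 to 0.017 for H2-Ab1, -0.209 to 0.037 for H2-Eb1, -0.112 to 0.011 for Cd74, -0.218 to 0.075 for H2-DMb1, -0.775 to 0.017 for H2-DMb2 and -0.023 to 0.739 for Ciita. In the average IFN-γ effect they were -0.097 to 0.036 for H2-Ab1, -0.098 to 0.024 for H2-Eb1, -0.055 to 0.006 for Cd74, -0.066 to 0.104 for H2-DMb1, -0.375 to 0.021 for H2-DMb2 and -0.418 to 0.01 for Ciita. In the interaction they were -0.266 to 0.008 for H2-Aa, -0.222 to 0.025 for H2-Eb1, -0.114 to 0.009 for Cd74 and -0.261 to 0.014 for H2-DMa.

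Other settings gave -0.006 for Cd74 in IFN-γ against control (DESeq2, its size factors and the filter of 50 reads) and -0.013 on the compared groups alone, where H2-Eb1 was at -0.003, and limma-voom gave -0.035 for H2-DMb2. DESeq2 and its size factors gave -0.004 for H2-Aa in Remodelin with IFN-γ against Remodelin and -0.018 for H2-DMb1 in the average IFN-γ effect, which was -0.004 with no filter. With the GC trend removed, H2-DMa was at 0.104 in Remodelin with IFN-γ against IFN-γ and H2-DMb1 at 0.092 in the average Remodelin effect. In Remodelin with IFN-γ against Remodelin, H2-Aa was then at -0.116, H2-Ab1 at 0.067 and Cd74 at 0.093, and in the average IFN-γ effect at -0.028, 0.129 and 0.105. Counts of 3 to 48 per library limit what can be said of Ciita and H2-DMb2.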

Other observations

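Control 1 and Remodelin 1 stood apart from their groups in opposite directions in the DM genes. Control 1 had the lowest level of H2-DMb1 among the 12 libraries, 42.4 CPM, and Remodelin 1 the highest, 71.6 CPM. For H2-DMa the same libraries were at 21.8 and 34.8 CPM. Over all tested genes the deviations of these libraries from their group means had a correlation of -0.497, the lowest of the 18 pairs with a shared number. Without both libraries, the log2 fold change of Remodelin against control was -0.25 ± 0.15 for H2-DMb1 (adjusted p = 0.28, edgeR) and -0.20 ± 0.16 for H2-DMa (adjusted p = 0.437). With all libraries it was 0.09 ± 0.18 for both genes.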
